A study of Mus musculus with 4 samples.

Results

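The genes described here are those of the p53 pathway and its best known targets: the tumour suppressor Trp53, its regulators Mdm2 and Mdm4, and genes it switches on for cell death, growth arrest, metabolism and DNA repair. They were chosen by name, as 32 listed symbols. The files held 31 of them among 24016 gene symbols, each read at the transcript with the highest total over the libraries. All 31 passed the filter on low counts, as did 14853 genes in all. The listed Tigar was not matched by symbol. Its RefSeq accession was found under the older name 9630033F20Rik, and its values are given apart from the 31.

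RNA came from blood stem cells sorted from the bone marrow of C57BL/6 mice aged 4 months. The sort kept lineage-negative cells that carried Sca-1, c-Kit and CD150 and lacked CD34 and Flt3. The wild type (WT) and NHD13+ transgenic (NHD13) groups had 2 libraries each. As background, NHD13 mice carry a NUP98-HOXD13 fusion gene driven in blood cells by the Vav promoter, and they develop a disease like human myelodysplastic syndrome. Nothing in the labels ties a library to its own mouse or to a pool. The SDs below therefore describe how far these libraries spread, which may be technical. The p-values set the group difference against variation estimated from these same libraries, so they carry the same limit.

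p53 is a transcription factor that Mdm2 holds at a low level by marking it for destruction, while Mdm4 holds it inactive. DNA damage and other stresses free p53 from both. It then raises Mdm2 itself, in a feedback loop, and genes for arrest, repair and cell death. In blood stem cells p53 is known for keeping cells quiescent and for removing damaged cells, and it is lost in some advanced myelodysplastic syndromes. Most of its control acts on the protein, so the level of Trp53 RNA and the level of its targets need not move together.

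Depth was high in every library, at 35025974 to 48423689 counts with 1 transcript per gene, and levels are given in CPM, counts scaled to one fixed library total with factors from the trimmed mean of M values (TMM). Counts of Hoxd13, the transgene's partner, were 65 and 78 in the NHD13 libraries against 14 and 3 in the WT ones. Its log2 fold change was 3.07 ± 0.76 (SE) and was not called (adjusted p 0.0893 by edgeR). Of 14 stem cell markers all were tested, with summed levels of 5089 and 5345 CPM in WT and 3324 and 3841 CPM in NHD13. Markers of other cells were uneven. Of 12 listed late granulocyte genes 11 were in the files. They summed to 2838 CPM in NHD13 library 1, 380 CPM in NHD13 library 2 and 281 to 327 CPM in WT. The 9 T and NK cell genes found summed to 214 CPM in NHD13 library 2 and 24.7 to 26.5 CPM in the other libraries. Lck at 97.3 CPM, Cd3e at 36.3, Cd3g at 30.8, Gzmb at 30.3 and Cd247 at 18.8 made up most of the 214 CPM. The other 4, Cd3d, Gzma, Klrd1 and Ncr1, were under 1 CPM in every library. The part of these transcripts of other cells, and of the lower stem cell markers, in the results below was not tested.

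WT library 1 stood apart. Genes of pluripotent cells, which blood stem cells do not use, were present in it, and all 14 of a list written after this was seen were highest there. Pou5f1, the pluripotency factor Oct4, had 5133 counts in WT library 1, 2 in WT library 2, 0 in NHD13 library 1 and 40 in NHD13 library 2. Tdgf1, a co-receptor of embryonic cells, had 2150, 0, 0 and 8 counts in the same order. The list summed to 261 CPM in WT library 1, 36.7 CPM in WT library 2, 4.19 CPM in NHD13 library 1 and 5.96 CPM in NHD13 library 2. Gdf3 supplied 53.3 and 35.6 CPM of the WT sums and was the member abundant in WT library 2. Of 12 epithelial genes, 9 were highest in WT library 1, and Cdh1, the cadherin of epithelial and pluripotent cells, was at 47.6 CPM there and 0.903 CPM in WT library 2. Others on this list followed the groups instead. The keratin gene Krt18 was at 283 and 281 CPM in WT and 54.1 and 51.9 CPM in NHD13, and both it and Krt8 fell (adjusted p 0.00313 and 0.0389 by edgeR). Dsp, which encodes desmoplakin, was at 7.15 and 0.547 CPM in WT and 135 and 86.9 CPM in NHD13 and was not called (adjusted p 0.0772). Where leaving out WT library 1 moved the log2 fold change of one of the 31 genes by over 0.2, both values are given below. The part of these other transcripts in the results was not tested.

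The comparison asked how the p53 pathway differs between stem cells of NHD13 and WT marrow. Of the 31 genes, Fas, Gdf15 and Plk2 fell in NHD13 by edgeR's quasi-likelihood test at an adjusted p under 0.05, and 0 rose, with 12 of the 31 at an unadjusted p under 0.05. Over all genes tested 4.28 percent were called, 2.22 percent lower and 2.07 percent higher, and 26.8 percent had an unadjusted p under 0.05. The log2 fold change was below 0 for 22 of the 31, against 49.9 percent of all genes, with a median of -0.24 against 0.00132 over all genes. Groups did not overlap for 19 of the 31 genes, 13 lower and 6 higher in NHD13, against 60.4 percent of all genes (30.3 percent lower and 30.1 percent higher). The DESeq2 test called 7 of the 31, and limma-voom called 3, against 2604 and 619 of all 14853 genes tested. Calls at 2 libraries a group were fragile, as the part on processing below shows. The median log2 fold change of the 31 was -0.11 without WT library 1 and -0.31 without WT library 2. It was -0.20 without NHD13 library 1 and -0.26 without NHD13 library 2.

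**Figure D1:**
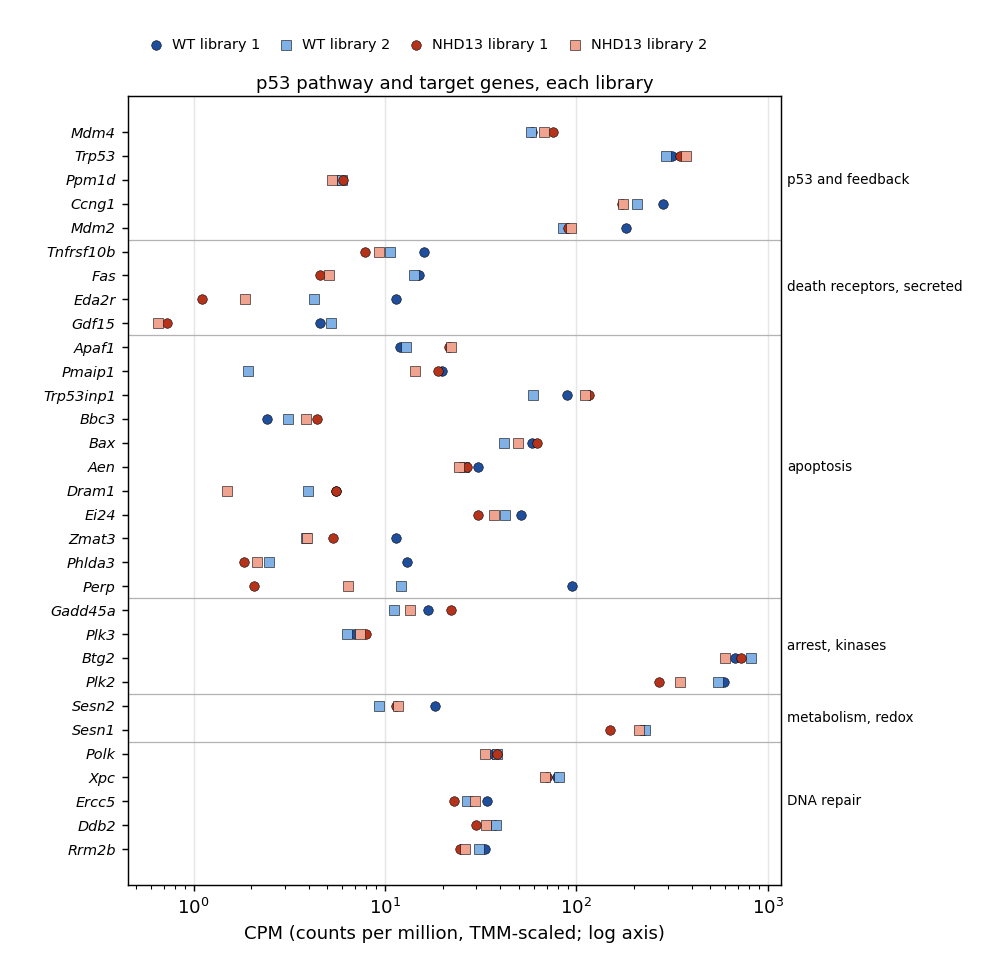
Level of each of the 31 genes in each library, in CPM on a log axis, with genes grouped by role and circles and squares for library 1 and library 2 of a group. Fas, Gdf15 and Plk2 show both NHD13 libraries below both WT libraries, while Perp, Phlda3 and Mdm2 show WT library 1 apart from the other 3.

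**Figure D2:**
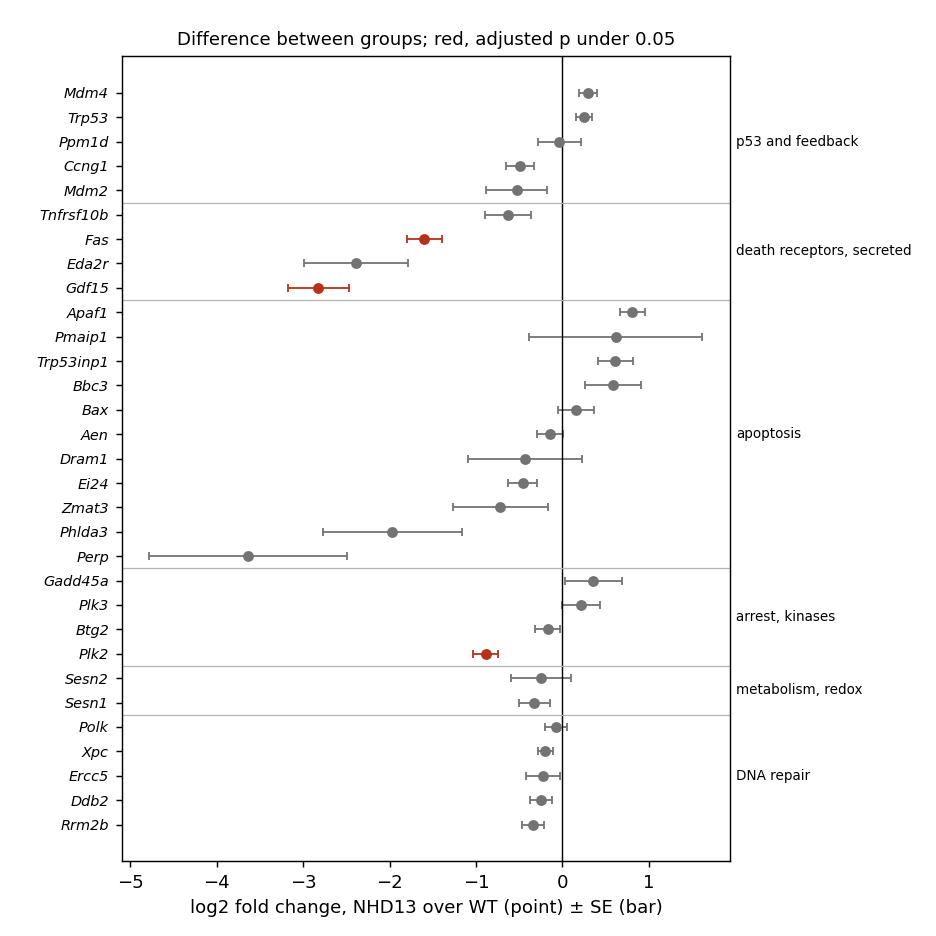
Log2 fold change of NHD13 over WT for the 31 genes, points with bars of ± 1 SE from the edgeR fit, red where the adjusted p was under 0.05. The 3 red points are Fas, Gdf15 and Plk2, and the widest bars are those of Perp, Pmaip1 and Phlda3.

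Promoter sequences are shown for the 3 called genes, for Mdm2 and Ccng1 as feedback targets and for Cdkn1a as the classic one. They come from RefSeq on GRCm38.p6, not the mm9 build of the counts, matched by symbol, from 250 bases before to 50 after a gene's start. Windows were found for 24 of the 32 listed genes. Capitals mark exact matches, on either strand, to the p53 response element decamer, a motif of 10 letters of which a full element has a pair.
Fas, chr19:34290409-34290708, plus strand: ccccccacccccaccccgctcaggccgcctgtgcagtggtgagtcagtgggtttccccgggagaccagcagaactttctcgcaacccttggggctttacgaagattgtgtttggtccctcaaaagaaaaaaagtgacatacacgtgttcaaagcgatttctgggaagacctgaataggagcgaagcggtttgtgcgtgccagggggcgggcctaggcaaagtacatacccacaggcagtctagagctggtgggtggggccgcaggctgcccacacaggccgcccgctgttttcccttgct
Gdf15, chr8:70632046-70632345, minus strand, 1 of 2 windows: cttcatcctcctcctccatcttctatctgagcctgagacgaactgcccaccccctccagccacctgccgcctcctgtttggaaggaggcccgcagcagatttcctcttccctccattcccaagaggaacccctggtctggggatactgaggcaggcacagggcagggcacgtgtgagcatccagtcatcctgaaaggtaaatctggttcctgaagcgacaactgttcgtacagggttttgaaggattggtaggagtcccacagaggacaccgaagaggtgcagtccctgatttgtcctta
Plk2, chr13:110394794-110395093, plus strand: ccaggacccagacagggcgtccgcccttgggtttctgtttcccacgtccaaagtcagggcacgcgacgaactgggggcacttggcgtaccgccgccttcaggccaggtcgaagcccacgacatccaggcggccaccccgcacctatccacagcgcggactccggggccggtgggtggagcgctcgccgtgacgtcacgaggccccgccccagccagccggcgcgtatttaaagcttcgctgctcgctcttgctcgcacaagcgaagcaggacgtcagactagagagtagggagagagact
Mdm2, chr10:117710709-117711008, minus strand: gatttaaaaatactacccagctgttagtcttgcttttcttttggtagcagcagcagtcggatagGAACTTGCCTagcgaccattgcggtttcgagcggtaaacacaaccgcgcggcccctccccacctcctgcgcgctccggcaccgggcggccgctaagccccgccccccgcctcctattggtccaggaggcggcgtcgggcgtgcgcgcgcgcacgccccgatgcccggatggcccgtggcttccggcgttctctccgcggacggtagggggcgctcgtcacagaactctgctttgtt
Ccng1, chr11:40755237-40755536, minus strand: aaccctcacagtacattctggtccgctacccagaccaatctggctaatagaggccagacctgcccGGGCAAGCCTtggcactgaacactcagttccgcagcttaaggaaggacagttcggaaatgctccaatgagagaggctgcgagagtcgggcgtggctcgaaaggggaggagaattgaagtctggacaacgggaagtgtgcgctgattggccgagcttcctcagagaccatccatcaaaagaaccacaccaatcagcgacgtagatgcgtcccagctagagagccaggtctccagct
Cdkn1a, chr17:29090729-29091028, plus strand, 1 of 2 windows: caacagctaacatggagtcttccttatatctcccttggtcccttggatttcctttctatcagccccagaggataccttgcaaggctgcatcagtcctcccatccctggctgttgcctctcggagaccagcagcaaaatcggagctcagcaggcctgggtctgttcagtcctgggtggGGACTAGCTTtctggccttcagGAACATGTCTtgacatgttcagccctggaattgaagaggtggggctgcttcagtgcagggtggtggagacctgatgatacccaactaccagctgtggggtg

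The decamer was matched in the windows of 10 of the 24 genes, and in 11 of their 31 windows, against 8.36 percent of 32851 promoter windows of 300 bases. It was in none of the windows of Fas, Gdf15 and Plk2, the genes that fell. Mdm2 had it 186 bases and Ccng1 185 bases before the start. The shown Cdkn1a window had 2 matches, 73 and 51 bases before the start, and its other window had 0. Unmarked letters lie between these 2 matches, so they are not read as the pair of a full element. A 14-letter core of a full element was also found in the shown window. That core runs from the match at 51 bases into letters left unmarked, as its other side was not an exact decamer match. The core was in 0 of the 31 windows. A match is a description of the letters in this window only, as p53 elements often lie elsewhere in a gene. Trp53, Bax, Polk, Ppm1d, Gadd45a, Ei24, Aen and Sesn1 were the other genes with a match.

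Death receptors and a secreted stress signal, the genes through which p53 speaks to other cells and to the death machinery at the cell surface, had all 4 log2 fold changes below 0 and the lowest median of the role groups, -1.99. Fas, the receptor that starts caspase-driven death when bound by its ligand, was at 15.0 and 14.3 CPM in WT and 4.57 and 5.10 CPM in NHD13. Each NHD13 library was below each WT library. Its log2 fold change was -1.60 ± 0.20 (SE, adjusted p 0.0312 by edgeR), and it was -1.57 without WT library 1. Gdf15, a secreted member of the TGF-beta family raised by many stresses, was counted 198 and 192 times in WT against 25 and 32 times in NHD13. That is 4.90 ± 0.497 CPM (SD, n = 2) against 0.690 ± 0.0527 CPM. Its log2 fold change was -2.82 ± 0.36 (adjusted p 0.0318 by edgeR), or -2.93 without WT library 1. Over all 16 settings the adjusted p was 1.47e-07 to 0.224 for Fas, called in 12, and 7.70e-07 to 0.202 for Gdf15, called in 11.

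Eda2r, an X-linked receptor of the tumour necrosis factor family, was at 11.4 and 4.24 CPM in WT and 1.11 and 1.86 CPM in NHD13. The groups did not overlap, but the WT libraries lay 2.68-fold apart. Its log2 fold change was -2.39 ± 0.60 (adjusted p 0.0921 by edgeR), or -1.52 without WT library 1. DESeq2 called it (adjusted p 0.00206), and over all settings run the adjusted p was 0.00206 to 0.334. Tnfrsf10b, the mouse TRAIL receptor, was at 16.0 and 10.7 CPM in WT and 7.86 and 9.35 CPM in NHD13, with a log2 fold change of -0.63 ± 0.27 that was not called and was -0.32 without WT library 1. In bulk samples, fewer cells carrying a transcript and less of it per cell cannot be told apart.

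Among genes of growth arrest and the stress-induced kinases, Plk2 fell. Plk2, a polo-like kinase induced by p53 and by growth signals, was at 589 and 550 CPM in WT and 269 and 347 CPM in NHD13. Both NHD13 libraries were below both WT libraries, with a log2 fold change of -0.89 ± 0.15 (adjusted p 0.0470 by edgeR). This call sat at the threshold: with library totals as the only scaling the adjusted p was 0.0616, without robust estimation it was 0.0506, and it ranged from 6.61e-07 to 0.255 over all settings. The fold change was -0.84 without WT library 1 and -0.70 without NHD13 library 1. Its relative Plk3 had a log2 fold change of 0.22 ± 0.22, at 6.87 and 6.35 CPM in WT and 7.95 and 7.45 CPM in NHD13.

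Btg2, an antiproliferative gene, was abundant in all libraries, at 670 and 816 CPM in WT and 722 and 601 CPM in NHD13, and the groups overlapped (-0.17 ± 0.14). Gadd45a, which acts in arrest and repair, was at 16.8 and 11.1 CPM in WT and 22.3 and 13.6 CPM in NHD13 (0.36 ± 0.33). Its fold change was 0.68 without WT library 1 and -0.03 without NHD13 library 1, so its direction rested on that library.

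Trp53 itself was not lower. It was at 316 and 293 CPM in WT and 349 and 373 CPM in NHD13, with no overlap and a log2 fold change of 0.25 ± 0.09 (adjusted p 0.176 by edgeR). Mdm4 also lay higher in both NHD13 libraries, at 75.1 and 68.1 CPM against 59.0 and 57.7 CPM in WT (0.30 ± 0.10, adjusted p 0.154). Neither was called, and both changes were under 1.5-fold in size. Mdm2 was at 181 CPM in WT library 1, 85.3 CPM in WT library 2 and 90.5 and 94 CPM in NHD13. WT library 2 thus lay below both NHD13 libraries, and the log2 fold change of -0.53 ± 0.35 became 0.11 without WT library 1. Ccng1, a cyclin induced by p53 that acts back on Mdm2, was at 283 and 208 CPM in WT and 173 and 175 CPM in NHD13 (-0.49 ± 0.16, adjusted p 0.146, called by DESeq2 at 0.0384). Its fold change was -0.26 without WT library 1 and -0.70 without WT library 2. Ppm1d, the phosphatase that switches the response off, was at 5.29 to 6.05 CPM in the 4 libraries (-0.04 ± 0.25).

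The 11 genes of cell death inside the cell moved in both directions, 5 with a log2 fold change above 0 and 6 below. Apaf1, the scaffold on which caspase-9 is activated, was at 12 and 12.9 CPM in WT and 21.5 and 22.2 CPM in NHD13, without overlap. Its log2 fold change was 0.81 ± 0.15 with an adjusted p of 0.0549 by edgeR, just outside the threshold. It was called by DESeq2 (0.00127), without a filter on low counts (0.0418), under the stricter filter (0.0412) and with summed transcripts (0.0426). Over all settings its adjusted p was 0.00127 to 0.277 and its log2 fold change 0.75 to 0.86. Trp53inp1, a p53 cofactor in stress and autophagy, was at 88.9 and 59.6 CPM in WT and 117 and 110 CPM in NHD13 (0.61 ± 0.20, adjusted p 0.148, called by DESeq2 at 0.0369), and its fold change was 0.92 without WT library 1.

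Of the BH3-only killers and their effector, Bbc3, which encodes Puma, was at 2.41 and 3.12 CPM in WT and 4.42 and 3.88 CPM in NHD13 (0.58 ± 0.32, adjusted p 0.315 by edgeR). Bax, which pierces the mitochondrial membrane, was at 58.8 and 41.8 CPM in WT and 62.4 and 49.8 CPM in NHD13. Its groups overlapped, and its log2 fold change of 0.16 ± 0.21 was 0.42 without WT library 1, -0.067 without WT library 2 and -0.01 without NHD13 library 1. Pmaip1, which encodes Noxa, was counted 859 times in WT library 1, 70 times in WT library 2, and 654 and 701 times in NHD13. WT library 2 was the low library, 10.3-fold below WT library 1, and the fitted log2 fold change was 3.11 without WT library 1 and -0.24 without WT library 2. No direction can be given for it from these libraries.

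Perp, a membrane protein of desmosomes and of p53-driven death, was at 94.5 and 12.2 CPM in WT and 2.07 and 6.41 CPM in NHD13. The NHD13 libraries were the lower ones against either WT library, and the log2 fold change of -3.64 ± 1.14 (adjusted p 0.137 by edgeR) was -1.52 without WT library 1. Phlda3, an inhibitor of Akt, was at 13.1 and 2.49 CPM in WT and 1.83 and 2.14 CPM in NHD13, so its log2 fold change of -1.97 ± 0.80 shrank to -0.33 without WT library 1. Zmat3, an RNA-binding target, was at 11.4 and 3.89 CPM in WT and 5.36 and 3.94 CPM in NHD13, and its log2 fold change of -0.72 became 0.25. Ei24, a protein of the endoplasmic reticulum, was at 51.2 and 42.4 CPM in WT and 30.8 and 37.2 CPM in NHD13 (-0.46 ± 0.16, adjusted p 0.163). Dram1, a lysosomal autophagy protein, was at 1.49 CPM in NHD13 library 2 and 3.94 to 5.56 CPM in the other 3 libraries (-0.43 ± 0.66, or -0.17 without WT library 1). The nuclease gene Aen had a log2 fold change of -0.14 ± 0.15.

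Repair genes that p53 is known to raise lay slightly lower. All 5 had log2 fold changes below 0, from -0.34 to -0.07, and none was called. Rrm2b, the ribonucleotide reductase subunit that supplies nucleotides for repair, was at 33.2 and 31.1 CPM in WT and 24.7 and 26.2 CPM in NHD13 (-0.34 ± 0.13, adjusted p 0.176 by edgeR). The damage recognition genes Xpc (-0.20 ± 0.09) and Ddb2 (-0.25 ± 0.13) also had both NHD13 libraries below both WT libraries. Ercc5, a nuclease of excision repair, and Polk, a polymerase that copies past lesions, had groups that overlapped. Over all settings the log2 fold change was -0.41 to -0.04 for Ercc5 and -0.16 to 0.03 for Polk, while Rrm2b, Xpc and Ddb2 stayed below 0.

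Sestrin genes, which restrain growth signalling under stress, were not called. Sesn1 was at 226 and 229 CPM in WT, 151 CPM in NHD13 library 1 and 212 CPM in NHD13 library 2, so most of its difference lay in 1 library (-0.32 ± 0.18, or -0.09 without NHD13 library 1). Sesn2 was at 18.2 and 9.28 CPM in WT and 11.4 and 11.8 CPM in NHD13, and its log2 fold change of -0.24 ± 0.35 became 0.32 without WT library 1. Tigar, a phosphatase that diverts sugar from glycolysis, was at 8.39 and 3.75 CPM in WT and 4.25 and 4.24 CPM in NHD13 under its older name 9630033F20Rik. Its log2 fold change of -0.52 ± 0.44 likewise turned, to 0.17.

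Differences inside the WT group were thus as large as those between groups for part of the pathway. WT library 1 was over 2-fold above WT library 2 for 6 of the 31 genes, namely Pmaip1, Perp, Phlda3, Zmat3, Eda2r and Mdm2, and WT library 2 was over 2-fold above WT library 1 for 0. The shares over all genes were 7.53 and 1.22 percent. By any amount, 22 of the 31 were higher in WT library 1, against 49.5 percent of all genes, and 15 of the 31 were higher in NHD13 library 1 than in NHD13 library 2, against 47.7 percent. Perp was 7.78-fold higher in WT library 1 (95% counting interval 7.05 to 8.60), Phlda3 5.25-fold (4.20 to 6.63) and Mdm2 2.12-fold (2.03 to 2.21). These intervals are exact binomial ones and cover counting error only. Between the NHD13 libraries, Dram1 was over 2-fold higher in library 1 and Perp in library 2, 1 gene each of the 31, against 4.21 and 8.03 percent of all genes.

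**Figure D3:**
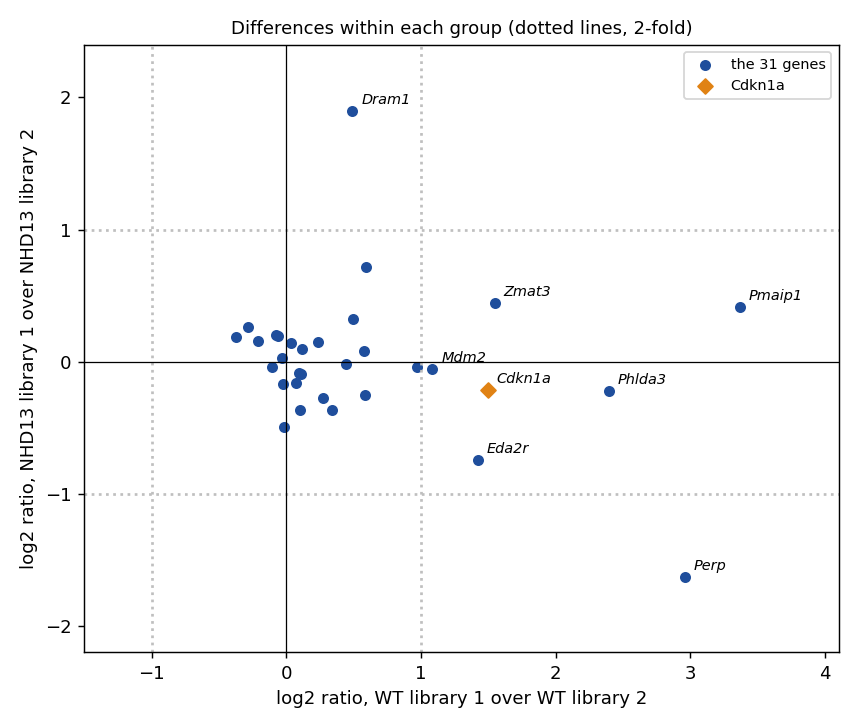
Log2 ratio of the libraries inside the WT group (x axis) and inside the NHD13 group (y axis) for the 31 genes and Cdkn1a, with dotted lines at a 2-fold ratio. Pmaip1, Perp, Phlda3, Zmat3, Eda2r and Mdm2 lie right of the 2-fold line, with Cdkn1a, and none of the genes lies left of the opposite line.

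Relative to each gene's mean over all libraries on a log2 scale, the median of the 31 was 0.21 in WT library 1, 0.01 in WT library 2, -0.08 in NHD13 library 1 and -0.13 in NHD13 library 2. Of the 31 genes 15 were highest in WT library 1, 6 in WT library 2, 8 in NHD13 library 1 and 2 in NHD13 library 2. Over all genes tested WT library 1 was highest for 25.7 percent. The median log2 fold change of the 31 was -0.11 without WT library 1 and -0.31 without WT library 2. The plot by WT library shows each gene against either WT library alone, with Fas at -1.57 and -1.63, Gdf15 at -2.93 and -2.72 and Plk2 at -0.84 and -0.93.

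**Figure D4:**
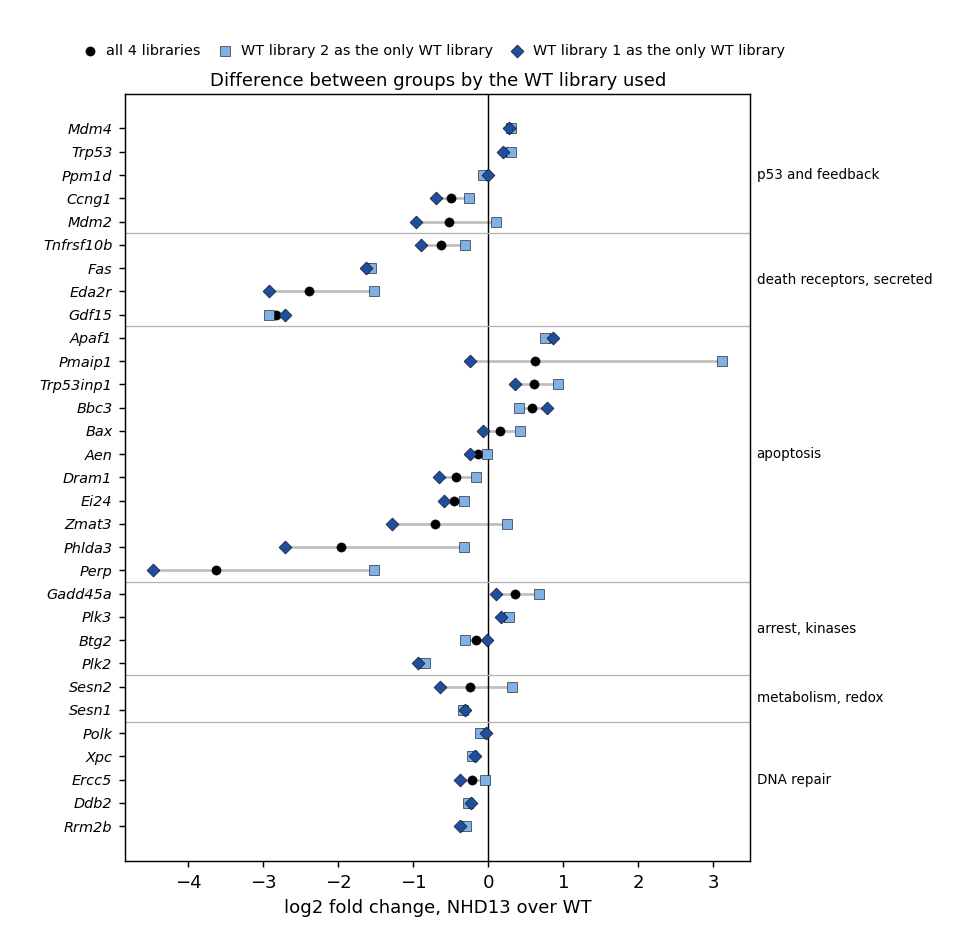
Log2 fold change of NHD13 over WT for the 31 genes with all 4 libraries (black circles), with WT library 2 as the only WT library (light squares) and with WT library 1 as the only one (dark diamonds). Pmaip1, Perp, Phlda3, Zmat3, Eda2r and Mdm2 have long connecting lines, while the markers of Fas, Gdf15 and Plk2 lie close together.

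Cdkn1a, which encodes the cell cycle inhibitor p21 and is the classic arrest target, is outside the 31 and followed the same pattern. It was at 135 CPM in WT library 1, 47.9 CPM in WT library 2 and 23.9 and 27.7 CPM in NHD13. WT library 1 was 2.82-fold above WT library 2 (95% counting interval 2.67 to 2.97), and both were above both NHD13 libraries. Its log2 fold change was -1.83 ± 0.50 (adjusted p 0.106 by edgeR, 0.000288 by DESeq2), and -0.90 without WT library 1, with an adjusted p of 0.000288 to 0.476 over all settings.

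Further p53 genes were read from lists written with earlier results of these data known. Of 46 other targets tested, 3 were called lower and 1 higher, with 26 log2 fold changes below 0, against 2.22 and 2.07 percent of all genes called and 49.9 percent below 0. Ndn, a target tied to stem cell quiescence, fell from 86.8 ± 0.769 to 2.52 ± 0.104 CPM (SD, n = 2, adjusted p 0.00147 by edgeR's test across all genes). Ier3, an early stress gene, was at 155 and 129 CPM in WT and 67.1 and 65.6 CPM in NHD13 (-1.10 ± 0.12, adjusted p 0.0248 by edgeR), and Mgmt, which removes alkyl groups from DNA, fell by 0.81 ± 0.13 on the log2 scale. Casp1, the inflammatory caspase, rose by 0.88 ± 0.12 on the same scale. These 4 calls rest on 2 libraries a group. Without WT library 1 the log2 fold change was -5.12 for Ndn and -0.97 for Ier3. Of the 46, 7, with Cdkn1a, Epha2, Sfn and Slc19a2 among them, were over 2-fold higher in WT library 1 than in WT library 2, and 0 the other way, against 7.53 and 1.22 percent of all genes. Sfn, an epithelial arrest gene, was at 29.5 CPM in WT library 1 and 3.78 to 5.06 CPM in the other 3, and its log2 fold change of -2.01 ± 0.83 was -0.24 without WT library 1.

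Upstream of p53, 0 of 23 regulators tested were called by edgeR, with 7 at an unadjusted p under 0.05, 3 lower and 4 higher, a share near the 26.8 percent of all genes. The higher ones were the damage kinase genes Chek1 (0.66 ± 0.21), Chek2 (0.48 ± 0.13) and Atr (0.30 ± 0.09) and the coactivator gene Ep300 (0.81 ± 0.16). The lower ones were Nqo1, a quinone reductase (-1.16 ± 0.33), the ribosomal protein gene Rpl11, whose product binds Mdm2 (-0.29 ± 0.08), and the acetyltransferase gene Kat5 (-0.29 ± 0.11). Groups did not overlap for any of the 7, against 60.4 percent of all genes. The 7 were picked by their p-value, so this adds no support. Of the 23, DESeq2 called Chek1, Chek2, Ep300, Nqo1 and Rpl11, against 2604 of all 14853 genes tested. Atm, the kinase gene for strand breaks, had 0.03 ± 0.19. Cdkn2a, whose Arf product blocks Mdm2, had 9 counts in WT and 5 in NHD13 and was below the filter.

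Genes of G2 and mitosis, which are known to fall when p53 acts through p21, lay higher in NHD13. All 16 tested had a log2 fold change above 0, with a median of 0.91, and 2 were called. Over all 14853 genes tested 7446 were above 0, and 2.07 percent were called higher. Ect2 (0.66 ± 0.39) and Kif23 (0.13 ± 0.15) had groups that overlapped. Ccnb2, a mitotic cyclin, was at 55.0 and 39.4 CPM in WT and 107 and 102 CPM in NHD13 (1.15 ± 0.18, adjusted p 0.0440 by edgeR). Cks2, a subunit of the cyclin-dependent kinases, was at 39.9 and 33.7 CPM in WT and 76.5 and 64.2 CPM in NHD13 (0.93 ± 0.15, adjusted p 0.0451). All 16 were also higher in WT library 1 than in WT library 2, against 49.5 percent of all genes. Cdkn1a was higher in WT library 1 as well. Any link between Cdkn1a and these genes was not tested.

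**Figure D5:**
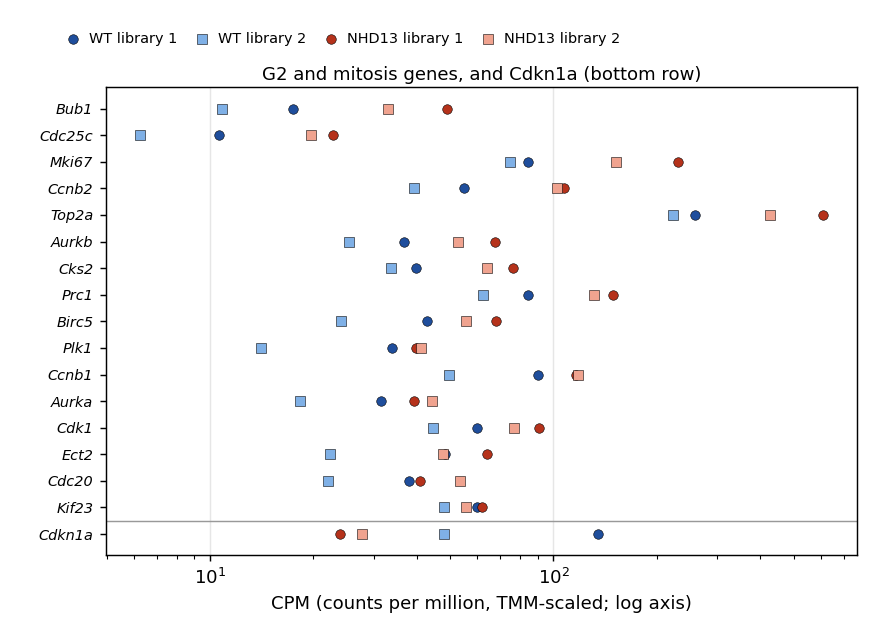
Level of 16 genes of G2 and mitosis and of Cdkn1a (bottom row) in each library, in CPM on a log axis. For each of the 16 genes WT library 1 lies above WT library 2, and Cdkn1a is highest in WT library 1 and lowest in NHD13 library 1.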

How the data were processed

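A SMARTer kit for low input amplified the RNA, and the labels' protocols give paired-end sequencing. Alignment to mm9 was done with Bowtie 0.12.2, per the submitters' processing notes. The read counter and its use of strand: not given in the sources used here. The authors deposited raw counts for each RefSeq transcript. Of the 31 genes 22 had 1 transcript, and the others mostly near-identical counts per transcript, so the highest was used.

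The test was edgeR's robust quasi-likelihood test (edgeR 4.0.16 in R 4.3.3) over all 4 libraries, with filterByExpr, TMM factors and Benjamini-Hochberg adjustment over 14853 genes. The SE is the size of the log2 fold change divided by the square root of F. The test was checked on simulated counts. Alternatives were other scalings and filters, DESeq2 1.42.0, limma-voom 3.58.1, a replicate block, other treatments of transcripts and leaving out each library.

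The genes and lists were chosen with earlier results of these data known, and the pluripotent and epithelial lists after WT library 1 was seen. Genes given with every library's value were those called, those at an unadjusted p under 0.05, those changed by at least 1 on the log2 scale, those over 4-fold apart within a group, and Trp53, Mdm2, Mdm4, Bax and Bbc3. Others among the 31 are so given after their values were seen. Outside the 31, the rule named Cdkn1a, Hoxd13, Nup98 and the called genes of each pathway list. Values of Nup98 are not given here. The pathway genes Sfn, Epha2, Slc19a2, Atm, Cdkn2a, Chek1, Chek2, Atr, Ep300, Nqo1, Rpl11, Kat5, Ect2 and Kif23 were chosen after their values were seen. So were Pou5f1, Tdgf1, Gdf3, Cdh1, Krt18, Krt8, Dsp and the T and NK cell genes named.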

Additional observations from a re-analysis of the deposited data

How the results depend on the processing

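All 31 genes kept their direction under each scaling, filter, tool, transcript and block setting with all 4 libraries. Leaving out 1 library turned the log2 fold change of Mdm2 (-0.97 to 0.11, above 0 without WT library 1), Pmaip1 (-0.24 to 3.11, below 0 without WT library 2) and Bax (-0.067 to 0.42, below 0 without WT library 2 and, at -0.01, without NHD13 library 1), among the genes named by rule. Without a library in turn the number of genes called was 0 to 990, that of the 31 was 0 to 2, and that of the 84 to 87 other pathway genes tested was 0 to 8, against 636, 3 and 6 (of 84) on all libraries. In these fits the lone library is assumed to vary like the other group's libraries. The median over the 31 was -0.31 to -0.11 in these fits. DESeq2 called 2604 genes, 7 of the 31 and 34 of the pathway genes. No filter gave 1138 and 16 (all genes and pathway genes), and the stricter filter 1066 and 15. Summed transcripts gave 402 and 3, and library totals only gave 3 pathway genes. With the replicate number as a block edgeR called 107 genes, 0 of the 31 and 1 pathway gene. In that fit 7 of the 31 had an unadjusted p under 0.05, against 3088 of all 14853 genes. Same-numbered libraries deviated oppositely (r = -0.21 across genes), so the numbers are not taken as pairs. The crossed pairing as a block, added after seeing the data, called 5 of the 31 and 647 of all 14853 genes. The cause of the opposite deviations was not tested. Genes under about 5 CPM, such as Gdf15 with 25 counts in a library, have the widest counting error.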

Other observations

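Fas and Eda2r were the genes of the 31 whose annotated transcripts had clearly different counts. The second Fas transcript was counted 116 and 85 times in WT against 27 and 48 times in NHD13. That was 17.8 and 16.3 percent of the main transcript's counts in WT and 17.2 and 19.2 percent in NHD13. The third Eda2r transcript had 59.3 and 59.4 percent of the main transcript's counts in WT and 94.7 and 74.7 percent in NHD13, where it had 36 and 68 counts. For the other genes with several transcripts, among them Trp53, Mdm2 and Apaf1, each further transcript had over 98 percent of the main one's counts in every library.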
